A study of Homo sapiens with 9 samples.

Results

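Glycosaminoglycan synthesis and sulfation genes were followed in human cranial neural crest cells (CNCCs) from which the transcription factor SOX9 was removed. The 36 genes were taken by name from 18970 gene symbols in the count tables. A member was described on its own where reads with a T>C conversion reached a level of 1 CPM, a count scaled to the size of its library, in 3 or more samples, which 34 of the 36 did. EXTL1 and HS3ST1 stayed below that level. The members were sorted by textbook role into 6 groups: supply of sulfate donor and sugar precursors (5 genes), the linker tetrasaccharide (5 genes), heparan sulfate polymerisation (5 genes), heparan sulfate modification (8 genes), chondroitin sulfate polymerisation (6 genes), and chondroitin and dermatan sulfate modification (7 genes).

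Glycosaminoglycans are long sugar chains that are built in the Golgi on the core proteins of proteoglycans. A linker of xylose, galactose and glucuronic acid is laid on a serine of the core protein, dedicated polymerases then extend it as heparan sulfate or as chondroitin sulfate, and sulfotransferases and epimerases finally decorate the chain. The sulfate comes from the donor PAPS, which PAPSS1 and PAPSS2 make. Sulfated chains bind growth factors at the surface of neural crest cells and fill the matrix of cartilage, a tissue that the cranial neural crest forms and whose genes SOX9 is known to control.

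The CNCCs were grown from H9 cells, a long-used line of human embryonic stem cells. In all 9 samples both SOX9 alleles carried an FKBP12-F36V, mNeonGreen and V5 tag at the C terminus, and the molecule dTAGV-1 marks the tagged protein for degradation. The groups were 0h, 3h and 24h of treatment, with 3 samples each. The labels gave a dTAGV-1 concentration of 500 nM for every sample, 0h included, and a relative SOX9 level of 100 at 0h and 0 at 3h and 24h. Passage 4 cells took up 4-thiouridine (100 uM) for 2 h, so that RNA made in that time carried T>C conversions, and libraries were made from 3′ ends (SLAM-seq). The 3h samples had been in dTAGV-1 for 1 h when labelling started, and the 24h samples for 22 h. Each group held the same 3 cultures, which were clone S9CC13 in differentiation batch R6 (S9CC13_R6) and clone S9CC47 in batches R5 and R6 (S9CC47_R5 and S9CC47_R6). Tests therefore compared samples of 3 cultures from 2 clones. Untagged cells given dTAGV-1 were not analysed here.

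Libraries held 16955633 to 28782678 total reads and 3130673 to 5475800 T>C reads. The share of T>C reads was 15.9% in the S9CC13_R6 3h library and between 18.1% and 21.3% in the others. SOX9 RNA was higher at 24h than at 0h (log2 fold change 1.15, SE 0.0843, adjusted p = 7.28e-39, DESeq2, T>C reads), a measurement that does not check the loss of the protein. All 10 markers of cranial neural crest mesenchyme were expressed, and their summed total reads went from 3550 to 3640 CPM at 0h to 4600 to 5030 CPM at 24h. The pluripotency genes POU5F1 and NANOG reached at most 0.203 CPM in any library, the neural progenitor gene SOX1 was at 0, and LIN28A, DPPA4 and NES were present. Of 7 chondrocyte markers, 4 were expressed, their list sum went from 375 to 409 CPM at 0h to 202 to 263 CPM at 24h, and ACAN reached at most 0.823 CPM. The pluripotency list summed to 350 to 415 CPM at 0h and 282 to 307 CPM at 24h, the neural progenitor list to 374 to 429 CPM and 336 to 468 CPM, and the glia and melanocyte list to 4.78 to 7.26 CPM and 2.69 to 3.93 CPM. The part of these shifts in the changes below was not tested, and fewer cells of a type and less RNA per cell cannot be told apart in bulk samples.

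The 250 bases before the annotated start were read for the members from RefSeq (GRCh38.p14), to show what lies ahead of the genes described here. Of the 36 members 32 were matched, with 42 promoters between them, and PAPSS2, EXT1, EXTL3 and CSGALNACT1 were not. The letters ACAAAG and ACAATG, both cores of the motif that SOX proteins bind, were searched on both strands, and no stretch can match both patterns at once. They occurred in 5 of the 42 member promoters (11.9%), which belong to SLC35D1, EXT2, NDST1 and HS6ST2, beside 21.2% of all 35116 promoters of this length. The members' promoters had a median GC content of 69.2%, beside 58% over all promoters. The CHST15 promoter is shown because CHST15 had the largest change among the members called, and that of NDST1 because, of the members called in the time comparisons and matched, it was the one whose promoter held a match. Capitals mark the match, which in NDST1 is ACAATG read on the opposite strand, 14 to 9 bases before the start. A match is a description of letters and not a binding site.
CHST15, chr10:124093599-124093848, minus strand: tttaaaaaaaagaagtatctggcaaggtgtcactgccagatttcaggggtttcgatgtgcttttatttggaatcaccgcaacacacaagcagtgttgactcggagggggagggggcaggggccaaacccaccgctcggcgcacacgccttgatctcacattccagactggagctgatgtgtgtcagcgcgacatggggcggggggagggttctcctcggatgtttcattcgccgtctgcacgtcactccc
NDST1, chr5:150497529-150497778, plus strand: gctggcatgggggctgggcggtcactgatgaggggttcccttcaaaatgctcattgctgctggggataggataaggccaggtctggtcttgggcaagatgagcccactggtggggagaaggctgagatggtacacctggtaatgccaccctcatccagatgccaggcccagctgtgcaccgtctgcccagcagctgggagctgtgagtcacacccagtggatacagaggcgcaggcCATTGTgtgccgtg
The RefSeq start used for NDST1 lies inside the gene as GENCODE draws it (chromosome 5, 150485818 to 150558211).

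The members took 0.0984% to 0.108% of the total reads and 0.149% to 0.165% of the T>C reads of a library. In every library their part of the T>C reads was the larger one. Before SOX9 loss, the T>C share of a gene measures how much of its RNA was made during labelling, but it also depends on how many uridines its reads cover. Over the 11561 genes tested in both kinds of reads, the median T>C share at 0h was 27.3%, and the lower and upper quartiles were 16.9% and 40.9%. The 32 members in this set had a median of 38.3%, and 21 of them lay above the median of all genes.

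The T>C shares were spread unevenly over the roles. The 7 enzymes that modify chondroitin and dermatan sulfate had T>C shares from 38.9% to 54.9%, all above the median of all genes. Of the 5 members tested in the chondroitin sulfate polymerisation group, 4 lay above it, and CHPF, the chondroitin polymerising factor, lay below it at 20.1%. Of the 4 members tested in the heparan sulfate polymerisation group, EXT1 alone lay above it at 39.2%. PAPSS1 had the lowest share of all at 16.5% and GLCE, the epimerase that turns glucuronic acid into iduronic acid in heparan sulfate, the highest at 57.6%. These figures describe the members, and no test was made between roles.

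**Figure D1:**
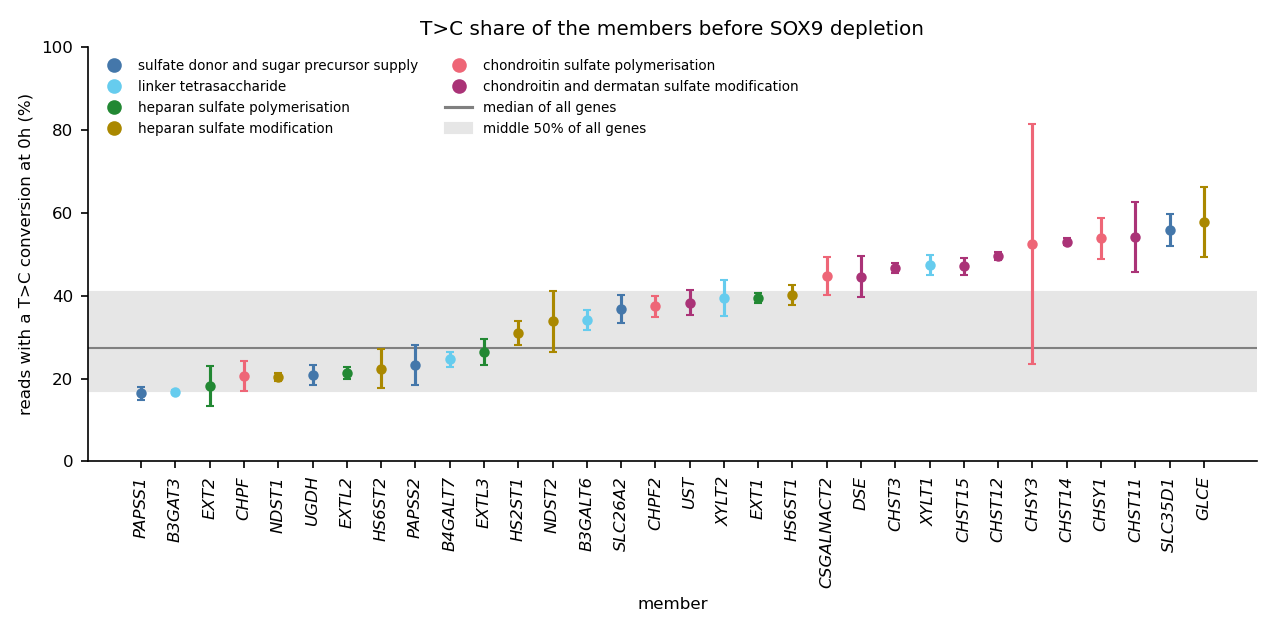
Share of reads with a T>C conversion at 0h for the 32 members tested in both kinds of reads, as mean and SD over 3 samples, coloured by role and ordered by the share pooled over the samples. The line marks the median of all genes (27.3%) and the band their quartiles (16.9% to 40.9%); all 7 genes of chondroitin and dermatan sulfate modification sit above the line, and CHSY3, with few reads, has a wide error.

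After 3 h of dTAGV-1, CHST15 was the one member called in T>C reads, and it was higher. CHST15 is the sulfotransferase that adds a 6-O sulfate to the 4-sulfated N-acetylgalactosamine of chondroitin sulfate, which gives the disulfated E unit. A call was an adjusted p under 0.1 in DESeq2 over all genes tested. With 1 of 34 members called, the background was 1.79% of all genes in T>C reads. In total reads CHST15 was again the one call among 32 members, where 1.89% of all genes were called. The median log2 fold change of the members was 0.034 in T>C reads, beside -0.011 over all genes.

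CHST15 lies on chromosome 10 (GRCh38, 124007668 to 124093598, minus strand). Its normalized T>C reads, which are counts divided by a size factor for each library, were 101 in S9CC13_R6, 99.2 in S9CC47_R5 and 122 in S9CC47_R6 before treatment. At 3h they were 201, 259 and 197 in the same order. At 24h they were 274, 233 and 186. Every treated sample stood above every 0h sample, and no group of treated samples overlapped 0h. How many of all genes do not overlap between groups was not counted, here or in the paragraphs below. Total reads gave the same picture, with 231 ± 19.1 at 0h, 451 ± 53.1 at 3h and 521 ± 81.6 at 24h (mean ± SD, n = 3). The smallest rise among the cultures was in S9CC47_R6, at 0.61 on the log2 scale in T>C reads at 24h, and the largest was in S9CC13_R6, at 1.44.

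The log2 fold change of CHST15 in T>C reads was 0.99 (SE 0.205, adjusted p = 2.40e-04, DESeq2) at 3h and 1.15 (SE 0.212, adjusted p = 7.80e-06, DESeq2) at 24h, the latter a 2.21-fold difference. In total reads the log2 fold change was 0.93 (SE 0.152, adjusted p = 3.07e-07, DESeq2) at 3h and 1.22 (SE 0.158, adjusted p = 2.31e-12, DESeq2) at 24h. Between 3h and 24h the T>C reads of CHST15 differed by 0.16 on the log2 scale, with a 95% interval from -0.28 to 0.59. With one culture left out at all 3 times, CHST15 stayed higher in each fit but lost its call in several. It was not called in T>C reads at 3h without S9CC47_R5 (log2 fold change 0.82) or without S9CC47_R6 (0.94), nor at 24h without S9CC13_R6 (1.24). In total reads it was not called without S9CC47_R6 (1.02 at 3h and 1.26 at 24h). Few genes of any kind were called in these fits. The shares of all genes in T>C reads were 0.775%, 0.0425% and 0.459%, in the order given. In total reads without S9CC47_R6 they were 0.104% at 3h and 0.484% at 24h.

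**Figure D2:**
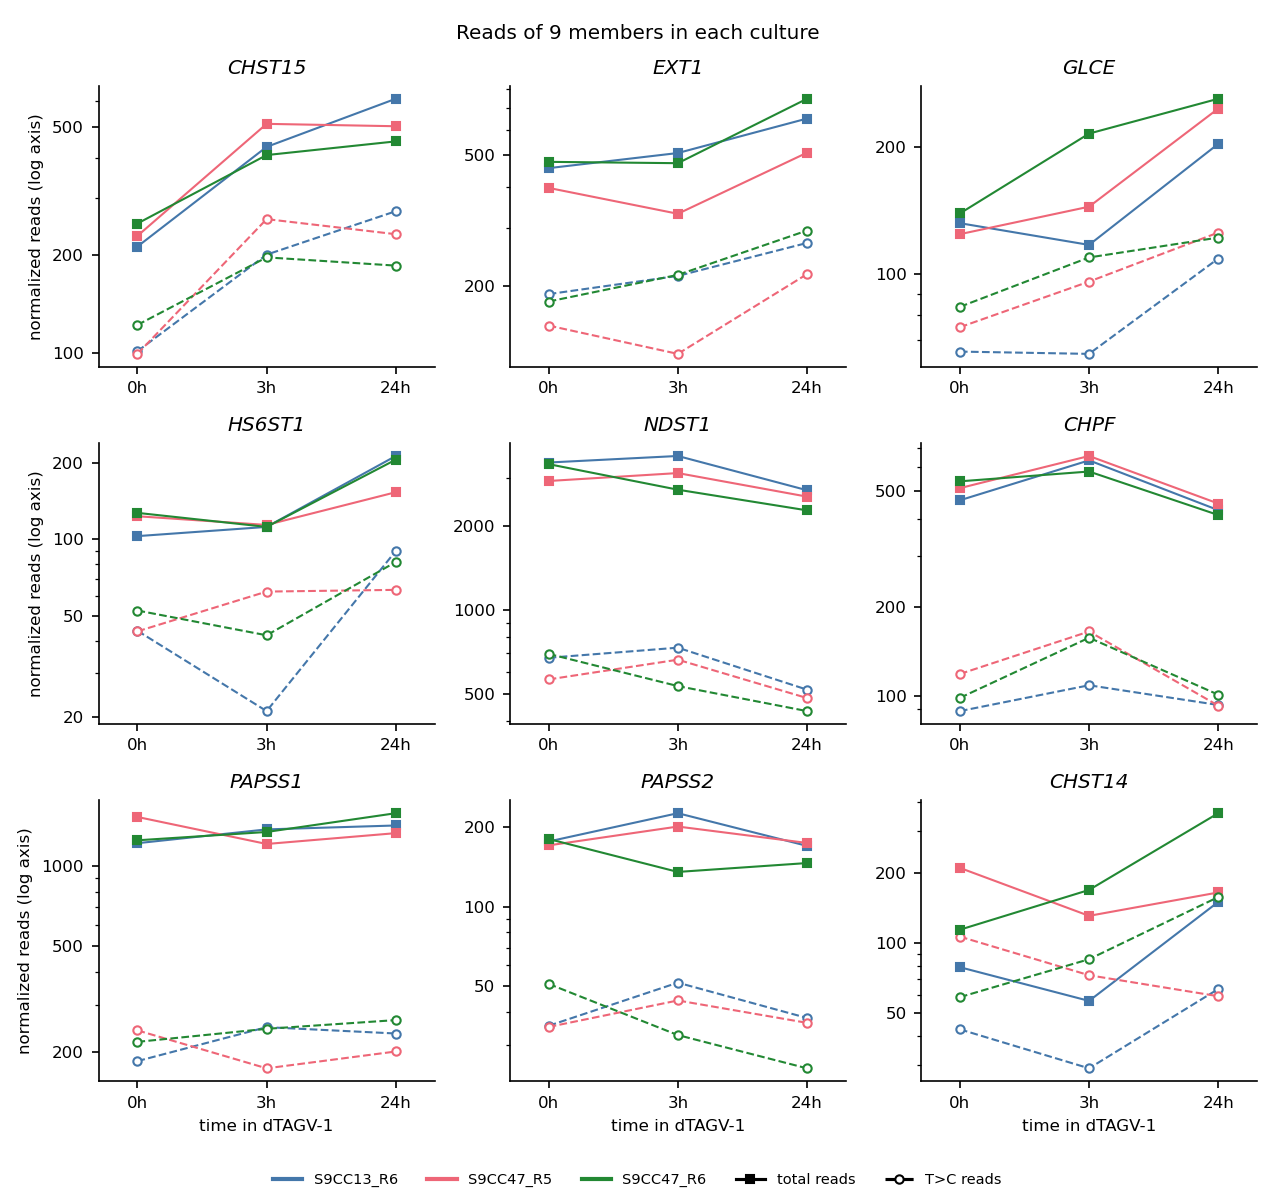
Normalized reads (log axis) of 9 members at 0h, 3h and 24h in dTAGV-1, with 1 line per culture, filled squares for total reads and open circles for T>C reads. CHST15 stands higher at 3h and 24h in all 3 cultures, EXT1, GLCE and HS6ST1 are highest at 24h, CHPF peaks at 3h, and the lines of PAPSS1 and PAPSS2 cross.

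After 24 h, EXT1 joined CHST15 among the calls in T>C reads, and GLCE, HS6ST1 and NDST1 joined both in total reads. Of these 5 genes 4 were higher and NDST1 was lower. In T>C reads 2 of 34 members were called, both higher, where 4.98% of all genes were called, a share near the background. In total reads 5 of 32 members were called, where 15% of all genes were called, and the members' share lay near that background too. The median log2 fold change of the members in total reads was 0.065, beside 0.0036 over all genes.

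EXT1 encodes the subunit that, with EXT2, polymerises heparan sulfate, and it lies on chromosome 8 (117794490 to 118111826, minus strand). Its normalized total reads at 0h were 457, 398 and 478 in S9CC13_R6, S9CC47_R5 and S9CC47_R6. At 3h they were 509, 332 and 474. At 24h they were 648, 510 and 745. The 24h samples all stood above the 0h samples, while the 3h samples overlapped 0h. The log2 fold change at 24h was 0.49 in total reads (SE 0.131, adjusted p = 0.00430, DESeq2) and 0.58 in T>C reads (SE 0.182, adjusted p = 0.0430, DESeq2). At 3h it was -0.025 in total reads, with a 95% interval from -0.27 to 0.22. With the replicate block and 1 surrogate variable EXT1 kept its call in total reads (0.49, adjusted p = 0.0678, DESeq2) and lost it in T>C reads (0.575, adjusted p = 0.192, DESeq2). It also lost its call in T>C reads at 24h without any one of the cultures (0.44 to 0.60), and in total reads without S9CC13_R6 (0.31) or S9CC47_R6 (0.29).

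GLCE lies on chromosome 15 (69160584 to 69272217, plus strand). Its normalized total reads were 132, 125 and 139 at 0h, 117, 145 and 216 at 3h, and 204, 247 and 261 at 24h, with the cultures in the order above. The lowest 24h sample exceeded the highest 0h sample, and the 3h samples reached from below the 0h group to above the lowest 24h sample. The log2 fold change at 24h was 0.67 in total reads (SE 0.202, adjusted p = 0.0128, DESeq2). For T>C reads it was 0.51 (SE 0.250, adjusted p = 0.331, DESeq2), and with the culture as a replicate block it was 0.67 and called (adjusted p = 0.0982, DESeq2). When 1 surrogate variable was added to the block, GLCE was called neither in T>C reads (0.59, adjusted p = 0.482, DESeq2) nor in total reads (0.70, adjusted p = 0.108, DESeq2). In total reads, GLCE lost its call when S9CC47_R5 was left out (0.34), and likewise without the other cultures (0.87 and 0.99).

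HS6ST1 adds 6-O sulfate to the glucosamine of heparan sulfate and lies on chromosome 2 (128236716 to 128318868, minus strand). Its normalized total reads were 103, 123 and 127 at 0h, 112, 114 and 112 at 3h, and 213, 153 and 206 at 24h. The 24h samples stood apart from all others, and S9CC47_R5 rose least. The log2 fold change at 24h was 0.65 in total reads (SE 0.216, adjusted p = 0.0295, DESeq2) and 0.59 in T>C reads (SE 0.364, adjusted p = 0.516, DESeq2). The T>C reads were few, from 21.2 to 90.1 normalized reads. HS6ST1 was not called in total reads without any one of the cultures (0.37 to 0.85), nor with the replicate block and 1 surrogate variable (0.62, adjusted p = 0.254, DESeq2).

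NDST1 starts the modification of heparan sulfate by replacing N-acetyl with N-sulfate groups. It had the most reads of the members described by sample. Its normalized total reads were 3398, 2916 and 3352 at 0h, 3587, 3113 and 2713 at 3h, and 2701, 2561 and 2286 at 24h. The 24h samples were lower in every culture and did not overlap 0h. The log2 fold change at 24h was -0.25 in total reads (SE 0.0771, adjusted p = 0.0143, DESeq2), a smaller size than that of the genes that rose. For T>C reads it was -0.32 (SE 0.120, adjusted p = 0.139, DESeq2), and with the replicate block it was -0.44 and called (adjusted p = 0.048, DESeq2). When 1 surrogate variable was added to the block, NDST1 was called neither in T>C reads (-0.29, adjusted p = 0.428, DESeq2) nor in total reads (-0.20, adjusted p = 0.259, DESeq2). In total reads NDST1 was not called without any one culture (-0.23 to -0.10).

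The S9CC13_R6 3h library, which had the lowest T>C share, entered the 24h comparison through the covariates and the dispersion. Without it, which was tried after the data were seen, CHST15 was the one member called at 24h in T>C reads and in total reads. EXT1 then stood at 0.32, GLCE at 0.65, HS6ST1 at 0.58 and NDST1 at -0.13 in total reads (log2 fold change, 24h against 0h). Over all genes this fit called 2.56% in T>C reads, beside 4.98%, and 3.64% in total reads, beside 15%. The fits with 1 culture left out called 0.459% to 2.14% in T>C reads and 0.484% to 6.22% in total reads. The replicate block with 1 surrogate variable called 2.94% and 7.1%.

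**Figure D3:**
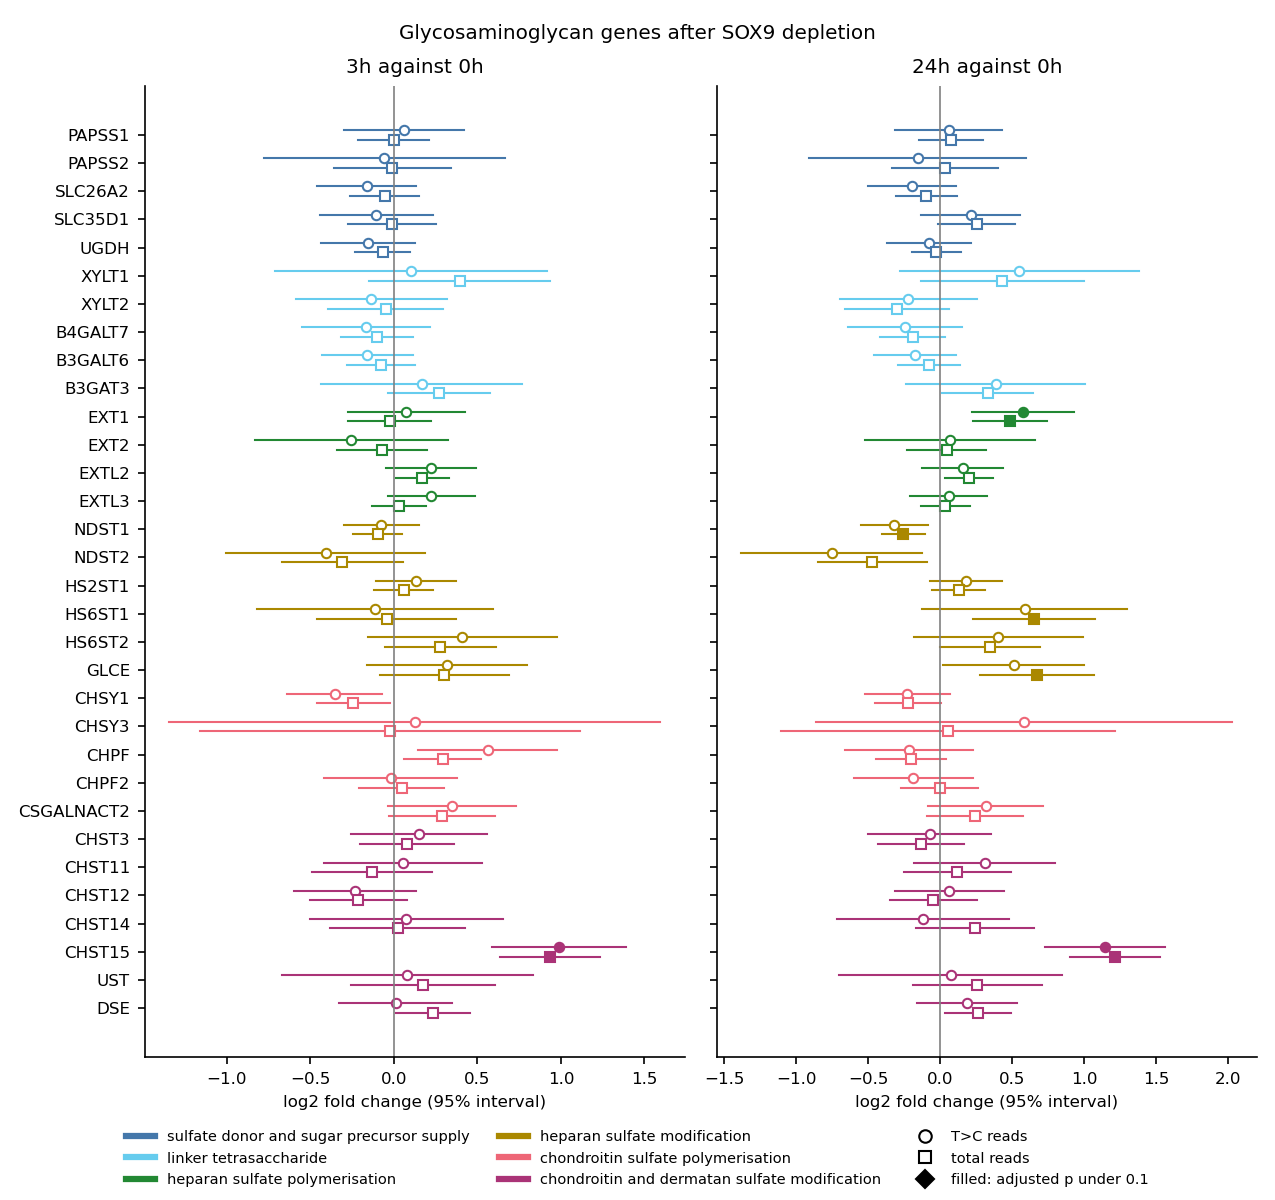
Log2 fold change at 3h and at 24h against 0h for the 32 members tested in total reads, with 95% intervals, circles for T>C reads, squares for total reads, filled symbols for an adjusted p under 0.1 (DESeq2) and colours for roles. CHST15 is called in both kinds of reads at both times, EXT1 in both at 24h, and GLCE, HS6ST1 and NDST1 in total reads at 24h.

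Between 3h and 24h, EXT1 and HS6ST1 rose and CHPF fell in total reads. These were 3 of 32 members called, where 5.39% of all genes were called. In T>C reads 0 of 34 members were called by DESeq2, where 1.14% of all genes were called, 2 members had an unadjusted p under 0.05, and edgeR called 1 (CHPF). EXT1 had a log2 fold change of 0.51 (SE 0.140, adjusted p = 0.0116, DESeq2) and HS6ST1 of 0.69 (SE 0.231, adjusted p = 0.0628, DESeq2). With the replicate block 6 members were called in total reads (CHPF, CHST14, EXT1, GLCE, HS6ST1 and NDST1) and 2 in T>C reads (EXT1 and NDST1). Over all genes the block raised the share called as well, to 13.2% in total reads and 4.4% in T>C reads. With 1 surrogate variable added to the block, 0 members were called by DESeq2 in total reads, where 2.12% of all genes were called. None of the 3 calls in total reads was made when any one culture, or the S9CC13_R6 3h library, was left out. Those fits called 0.806% to 2.6% of all genes.

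CHPF lies on chromosome 2 (219538954 to 219543809, minus strand), and its product works with the chondroitin synthases. Its normalized total reads were 463, 509.7 and 538 at 0h, 634, 656 and 581 at 3h, and 429, 452 and 413 at 24h. Each culture was highest at 3h and lowest at 24h, and the 3 groups did not overlap. From 3h to 24h the log2 fold change was -0.50 in total reads (SE 0.132, adjusted p = 0.00879, DESeq2) and -0.78 in T>C reads (SE 0.239, adjusted p = 0.101, DESeq2). Against 0h it was 0.29 at 3h and -0.20 at 24h in total reads, neither of them called. The comparisons with 0h share the same control samples.

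PAPSS1 and PAPSS2 are paralogs that make the sulfate donor for all of these sulfotransferases. PAPSS1, on chromosome 4 (107590276 to 107720234, minus strand), had normalized total reads of 1216, 1526.5 and 1247 at 0h, 1371, 1208 and 1341 at 3h, and 1418, 1327 and 1577 at 24h. PAPSS2, on chromosome 10 (87659613 to 87747705, plus strand), had 177, 171 and 181 at 0h, 226, 201 and 135 at 3h, and 170.01, 174 and 146 at 24h. The groups overlapped for both genes, and neither was called at any time. At 24h the 95% interval of the log2 fold change in total reads ran from -0.15 to 0.30 for PAPSS1 and from -0.33 to 0.40 for PAPSS2.

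By role, the 5 supply genes and the 5 linker genes had no call in T>C or total reads against 0h, with total read changes at 24h from -0.30 to 0.43 on the log2 scale. The linker gene B3GAT3 (0.33, adjusted p = 0.189, DESeq2) was called in total reads at 24h under the replicate block with 1 surrogate variable. Its change by culture was 0.40 in S9CC13_R6, 0.56 in S9CC47_R5 and -0.26 in S9CC47_R6 (log2, total reads), and 24h overlapped 0h. Of the 7 enzymes that modify chondroitin and dermatan sulfate, CHST15 was the one called against 0h by DESeq2 with batch and 1 surrogate variable, and the replicate block added CHST14 in total reads at 24h (and HS6ST2 among the heparan sulfate genes). The block called 14.7% of all genes in total reads at 24h against 0h. The median of the 7 enzymes at 24h was 0.24 in total reads. Their summed level was 84.9 ± 1.82 CPM at 0h, 97.4 ± 4.27 CPM at 3h and 109.6 ± 3.58 CPM at 24h (mean ± SD, n = 3, total reads). Within this sum CHST15 held 9.88 to 11.26 CPM at 0h and 21.32 to 28.91 CPM at 24h. CHST14 held 3.65 to 9.61 CPM and 7.09 to 16.96 CPM, and it was lower at 24h in S9CC47_R5. CHST3 (-0.13) and CHST12 (-0.046) had log2 fold changes below 0 at 24h, so the sum does not describe each gene. The sum of the 8 genes that modify heparan sulfate, in which NDST1 holds most reads, was 255.7 ± 9.49 CPM at 0h and 255.9 ± 8.5 CPM at 24h. Chondroitin sulfate polymerisation genes had no call against 0h with batch and 1 surrogate variable, though CHSY1, a chondroitin synthase, was called in T>C reads at 3h with size factors from total reads. Its log2 fold change with the usual size factors was -0.35 (adjusted p = 0.408, DESeq2), and all 3 cultures were lower at 3h, with no overlap with 0h. The uncalled CHST3 and NDST3 did not overlap 0h at 3h in T>C reads either. Size factors from total reads called 2.28% of all genes there, beside 1.79%. For the chondroitin sulfate polymerisation genes the sum was 105 ± 2.34 CPM at 0h and 98.4 ± 6.4 CPM at 24h. The heparan sulfate polymerisation genes summed to 213.3 ± 5.62 CPM at 0h and 249.8 ± 11.1 CPM at 24h. Within this sum EXT1 held 18.28 to 21.44 CPM at 0h and 23.62 to 35.25 CPM at 24h. Most of it was EXTL2 (89.17 to 94.87 CPM and 103.1 to 109.6 CPM) and EXTL3 (73.61 to 90.94 CPM and 84.23 to 97.07 CPM). These had log2 fold changes at 24h of 0.20 (adjusted p = 0.114, DESeq2) and 0.037 (adjusted p = 0.850, DESeq2) in total reads. Supply genes summed to 199.7 ± 15.2 CPM and 213 ± 10.9 CPM, and linker genes to 132.8 ± 8.87 CPM and 130.1 ± 8.17 CPM. Reads of 3′ end libraries do not grow with transcript length, so levels were summed over genes without a correction for length.

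Members that were not called against 0h in T>C reads ranged from -1.78 (NDST3) to 0.56 (CHPF) at 3h and from -0.75 (NDST2) to 0.59 (HS6ST1) at 24h on the log2 scale. NDST3 and CSGALNACT1 passed the minimum in T>C reads only, on few reads. In total reads the range at 24h was from -0.47 (NDST2, adjusted p = 0.101, DESeq2) to 0.43 (XYLT1, adjusted p = 0.376, DESeq2). NDST2 was lower at 24h in 3 of 3 cultures without overlap with 0h, and both edgeR with TMM and DESeq2 with TMM factors called it in total reads. Those fits called 17.2% and 14.9% of all genes. Lack of overlap was common, since the uncalled XYLT1, B4GALT7, EXTL2, HS2ST1, CHPF, CHST3, UST and DSE did not overlap 0h at 24h in total reads either. NDST2, a second N-deacetylase and N-sulfotransferase, shares its last exon with a readthrough gene on the same strand, as do HS2ST1 and DSE, and their reads may be divided. The last exon of CHPF2 overlaps SMARCD3 on the opposite strand.

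T>C and unconverted reads of a member were compared within libraries. New RNA can also give unconverted reads, for instance where a read covers few uridines. The test therefore could not show whether new and older RNA moved apart, and it describes the kinds of reads only. Of 31 members tested 0 were called by DESeq2 at 3h, where 0.343% of all genes were called, and 0 at 24h, where the figure was 0.0176%. An unadjusted p under 0.05 was found for 1 member at 3h and for 0 at 24h, and edgeR called 0 members at either time. For CHST15 the log2 difference was 0.07 at 3h (95% interval -0.39 to 0.53) and -0.12 at 24h (-0.57 to 0.34). The T>C share of CHST15 was 47.1% ± 2.02 before treatment (SD, n = 3), 45.4% ± 5.67 after 3 h and 47.1% ± 2.38 after 24 h. Unconverted reads on their own gave 1 call among 32 members at 3h (CHST15, 0.93), where 1.1% of all genes were called. At 24h they gave 4 calls (CHST15, EXT1, GLCE and NDST1), where 12.1% were called.

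Cultures were compared with time as a covariate. Each side was a single culture, with its 0h, 3h and 24h samples standing in for replicates. The test thus compares these cultures and not clones or batches at large, and its errors include changes over time that differ between cultures. Between S9CC13_R6 and S9CC47_R6, 1 of 32 members was called, where 3.38% of all genes were called. It was CHST14, which sulfates dermatan sulfate, on chromosome 15 (40470984 to 40473158, plus strand). Its normalized total reads at 0h, 3h and 24h were 78.7, 56.5 and 149.7 in S9CC13_R6, 209, 131 and 164 in S9CC47_R5, and 114, 168 and 359 in S9CC47_R6. S9CC13_R6 was lowest at every time, and the cultures moved in different directions over time. Against S9CC47_R6 its log2 fold change was -1.16 (SE 0.301, adjusted p = 0.00999, DESeq2), and edgeR called 0 members. Between S9CC47_R5 and S9CC47_R6, 0 of 32 members were called by DESeq2, where 1.65% of all genes were called, and 1 had an unadjusted p under 0.05 (EXT1, -0.44).

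Around these members, other genes of the pathway were counted from lists by function. Of 24 other synthesis genes, 19 were tested in T>C reads, and 2 were higher at 24h, where 4.98% of all genes were called in either direction. At 3h 1 was higher, where 1.79% of all genes were called. UAP1, which makes UDP-N-acetylglucosamine, had a log2 fold change of 0.82 at 3h (SE 0.228, adjusted p = 0.0249, DESeq2) and of 0.78 at 24h (SE 0.237, adjusted p = 0.0297, DESeq2), and HS3ST3B1, a heparan sulfate 3-O sulfotransferase, of 0.77 at 24h (SE 0.176, adjusted p = 8.15e-04, DESeq2). Of 16 tested in total reads at 24h, both were higher again and SLC35B2, a PAPS transporter of the Golgi, was lower (-0.43, SE 0.167, adjusted p = 0.0785, DESeq2). There 15% of all genes were called. Of 14 genes tested in T>C reads that edit or break down the chains, SULF2 was the one called, and it was lower. The shares of all genes called were 1.79% at 3h and 4.98% at 24h. Among 15 such genes tested in total reads at 24h, the hyaluronidase gene HYAL2 was called beside SULF2, and HYAL2 was higher (0.30, SE 0.108, adjusted p = 0.0541, DESeq2). With 15% of all genes called there, these calls lay near the background. SULF2 removes 6-O sulfate from heparan sulfate outside the cell. Its log2 fold change in T>C reads was -0.64 at 3h (SE 0.194, adjusted p = 0.0671, DESeq2) and -1.36 at 24h (SE 0.208, adjusted p = 1.44e-08, DESeq2). Of 5 tested genes for hyaluronan and keratan sulfate, CHST6, which sulfates keratan sulfate, was lower at 24h (-1.28, SE 0.403, adjusted p = 0.0423, DESeq2, T>C reads), where 4.98% of all genes were called. Of 12 heparan sulfate core proteins, 0 were called in T>C reads at 24h, and in total reads GPC2, GPC4, GPC6 and SDC2 were higher while HSPG2 and SDC3 were lower, beside 15% of all genes called.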

How the data were processed

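The authors made SLAM-seq libraries of 3′ ends (QuantSeq), trimmed read 1 with skewer, removed poly(A) stretches and counted reads per gene with slamdunk (build hg38 per the labels). The deposited values were raw counts of total reads and of reads with T>C conversions, in 2 tables with 18 columns for 9 samples, and 0 columns were left unused. Unconverted reads were total minus T>C reads. Depth was 16955633 to 28782678 total reads and 3130673 to 5475800 T>C reads per sample.

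Tests covered protein-coding genes that reached 1 CPM in 3 samples or more, and were run in DESeq2 1.42.0 (R 4.3.3) by Wald tests on all 9 samples, with differentiation batch and 1 surrogate variable (svaseq, sva 3.50.0) as covariates, independent filtering off and Benjamini-Hochberg adjusted p under 0.1 over all genes tested. T>C against unconverted reads was an interaction within libraries, and cultures were compared with time as covariate. Each test was first checked on simulated counts, with large changes set into genes with many reads. The simulated tests over time held no differences between batches or cultures. That check does not cover the smaller changes or the few reads of some members. The 36 members, the role lists and the pathway lists were chosen with earlier results of these data known. Values in every sample were given for members called over time in T>C or total reads and for PAPSS1 and PAPSS2. CHST14, the one member called between cultures, was added after its values were seen. Culture names in the titles (clone and batch) pair the samples across times. Deviations of samples from the same culture correlated with a mean r of 0.124 in T>C reads (0.0267 to 0.249) and of 0.278 in total reads (-0.049 to 0.604), over 9 pairs each. Alternatives were edgeR 4.0.16 with TMM, other scalings, filters and covariates, the replicate block, only the 6 samples compared, each replicate left out and, added after seeing the data, the S9CC13_R6 3h library left out. Positions are from GENCODE on GRCh38.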

Additional observations from a re-analysis of the deposited data

Results flagged for a closer look

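For 3 members the effects at 3h and at 24h differed by the test of 24h against 3h itself, in total reads (DESeq2), and both effects use the same 0h samples. EXT1 was 0.51 higher at 24h than at 3h on the log2 scale (adjusted p = 0.0116, DESeq2), with 3 of 3 cultures higher at 24h. HS6ST1 was 0.69 higher on the same scale (adjusted p = 0.0628, DESeq2), again in 3 of 3 cultures. CHPF had a log2 fold change of -0.50 (adjusted p = 0.00879, DESeq2), with 3 of 3 cultures lower at 24h. Of all genes 5.39% were called in this comparison. None of the 3 calls was made with the replicate block and 1 surrogate variable. They were also lost without any one culture or without the S9CC13_R6 3h library.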

How the results depend on the processing

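The tests rest on 3 cultures, and leaving out 1 of them removed most calls, while T>C reads of several members are few. Calls over all genes fell as well, in total reads at 24h against 0h from 15% to 1.33%, 6.22% and 0.484%. These were the fits without S9CC13_R6, S9CC47_R5 and S9CC47_R6, in that order. CHST15 was higher in all alternatives, by 1.08 to 1.33 (log2) in T>C reads at 24h (called in 14 of 15) and 0.82 to 1.16 at 3h (13 of 15). The causes of the changes below were not tested.

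In T>C reads at 24h against 0h the 2 calls became 4 with the replicate block, 1 when 1 surrogate variable was added to it, 1 without the S9CC13_R6 3h library (chosen after seeing the data) and 0 to 1 with each replicate left out. Over all genes the first 3 of these settings called 6%, 2.94% and 2.56%, beside 4.98% in the main fit. At 3h the 1 call in T>C reads became 2 with size factors from total reads (CHSY1 added) and 0 to 1 with each replicate left out. Over all genes 2.28% and 0.0425% to 0.775% were called there, beside 1.79% in the main fit. At 24h against 3h the 0 calls in T>C reads became 1 with edgeR and TMM, with TMM factors in DESeq2 or with a mean of at least 20 counts, and 2 with the replicate block. These settings called 2.22%, 1.19%, 1.07% and 4.4% of all genes there, in the order given, beside 1.14% in the main fit. In total reads at 24h against 0h the 5 calls became 3 with the block and 1 surrogate variable (CHST15, EXT1 and B3GAT3, with GLCE, HS6ST1 and NDST1 lost), 1 with only the 6 samples compared, 1 without the S9CC13_R6 3h library and 0 to 2 with each replicate left out. Of all genes 7.1%, 3.21% and 3.64% were called in the first 3 of these settings, beside 15% in the main fit. In total reads at 24h against 3h the 3 calls became 6 with the replicate block, where 13.2% of all genes were called, beside 5.39% in the main fit. The 3 calls became 0 when 1 surrogate variable was added to the block, without the S9CC13_R6 3h library or with any replicate left out. Those settings called 2.12%, 2.6% and 0.806% to 1.65% of all genes. In total reads at 3h the 1 call became 2 with all genes of at least 1 count and 0 to 1 with each replicate left out. Of all genes 1.25% and 0.104% to 1.32% were called there, beside 1.89%. In unconverted reads at 24h the 4 calls became 7 with edgeR and TMM, 2 with the block and 1 surrogate variable (CHST15 and B3GAT3), 2 with a mean of at least 20 counts, 1 with only the 6 samples compared, 1 without the S9CC13_R6 3h library and 0 to 1 with each replicate left out. In that order, 14.6%, 5.32%, 10.2%, 2.27%, 2.91% and 1.16% to 4.77% of all genes were called, beside 12.1% in the main fit. In unconverted reads at 3h the 1 call became 2 with all genes of at least 1 count and 0 to 1 with each replicate left out. Shares over all genes were 0.766% and 0.247% to 1.13%, beside 1.1%. The 1 call between S9CC13_R6 and S9CC47_R6 became 0 with edgeR and TMM, where 1.2% of all genes were called, beside 3.38%.

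The values that changed sign were all uncalled. With each replicate left out, the log2 fold change in T>C reads at 3h ran from -0.022 to 0.23 for EXT1, -0.019 to 0.38 for GLCE, -1.19 to 0.15 for HS6ST1, -0.16 to 0.16 for NDST1, -0.18 to 0.29 for PAPSS1 and -0.13 to 0.53 for PAPSS2. At 24h it ran from -0.28 to 0.27 for PAPSS1 and -0.20 to 0.077 for PAPSS2. In total reads at 3h it ran from -0.20 to 0.073 for EXT1, -0.12 to 0.12 for NDST1, -0.32 to 0.14 for PAPSS1 and -0.034 to 0.28 for PAPSS2, and at 24h from -0.28 to 0.25 for PAPSS1 and -0.023 to 0.19 for PAPSS2. Size factors from total reads gave -0.011 for EXT1 and -0.025 for PAPSS1 in T>C reads at 3h. Without the S9CC13_R6 3h library, T>C reads at 3h gave -0.039 for EXT1, 0.22 for HS6ST1 and -0.13 for PAPSS1, and PAPSS1 at 24h gave -0.10 in T>C reads and -0.13 in total reads. PAPSS1 in total reads gave 0.015 at 3h with the block and 1 surrogate variable, and -0.067 at 24h with only the 6 samples compared. PAPSS2 in T>C reads at 3h gave 0.066 with no surrogate variable, 0.042 with the replicate block and 0.0645 with no covariates. PAPSS2 in total reads gave 0.090, 0.066 and 0.094 at 3h and -0.11, -0.12 and -0.11 at 24h under the same settings, and -0.031 at 24h with all genes of at least 1 count. All other counts stayed within 1.5 times.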
